A study of Caenorhabditis elegans with 4 samples.

Results

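Sulfur amino acid metabolism in Caenorhabditis elegans, a free-living nematode, was followed through 9 genes. These genes act in making cysteine from homocysteine, oxidizing cysteine, or producing, sensing or removing hydrogen sulfide. They were chosen by name from a list of 10 names, 2 of which, cysl-2 and K10H10.2, are the same gene, and all 9 were found among the 16562 loci of the authors' deposited table. Of the 9, 3 are listed there under those symbols alone, 5 under sequence names that a reference gene table pairs with them, and sqrd-1 in a locus joined with the small RNA gene 21ur-15397. Whole wild-type worms at stage L4, which ends in the molt to adulthood, were sequenced as 2 samples treated with the NO donor MAHMA NONOate at 1 mM and 2 control samples, all grown on E. coli OP50 at 20 °C. Worms recovered for 4 h before RNA was taken. Treated and control samples carry identical protocol text, so whether the control worms went through the same handling without the donor cannot be told apart from NO itself. The series was designed to compare worms with and without NO. The table holds 1 value per condition, so replicate spread and depth are unknown, and every error given is the standard error (SE) implied by the deposited test statistic.

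In transsulfuration, cystathionine beta-synthase joins homocysteine, a product of the methionine cycle, to serine, and cystathionine gamma-lyase cuts the resulting cystathionine to release cysteine. Both enzymes can also release hydrogen sulfide, a gas that inhibits mitochondrial respiration when it accumulates and that mitochondria clear through sulfide:quinone oxidoreductase. In worms, sulfide is sensed through the cysteine synthase-like protein CYSL-1, which binds the oxygen sensor EGL-9 and so relieves its inhibition of the transcription factor HIF-1. Excess cysteine is oxidized by cysteine dioxygenase.

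1 gene of the 9 rose after NO. cth-1, a gene for cystathionine gamma-lyase, passed an adjusted p of 0.05 in the authors' deposited table, and the other 8 genes did not. Of all loci in the deposited table, 0.399% passed by that rule, and these were 0.386% in the upward and 0.0121% in the downward direction. At an unadjusted p under 0.05, cth-1 and the beta-synthase gene cbs-2 were higher and 0 of the 9 were lower in the deposited table, where 3.09% of all loci passed that limit, with 2.75% higher and 0.338% lower. The summed level of the 9 genes was 748 FPKM (fragments scaled by transcript length and library size) in NO worms and 587 FPKM in control worms, from the deposited values. Without cth-1 the sums were 592 FPKM in NO worms and 550.5 FPKM in control worms. The median deposited log2 fold of the 9 genes was 0.07, against -0.02 over all loci above 0 in both conditions. With 1 call, a share of the 9 says little beyond cth-1 itself.

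**Figure D1:**
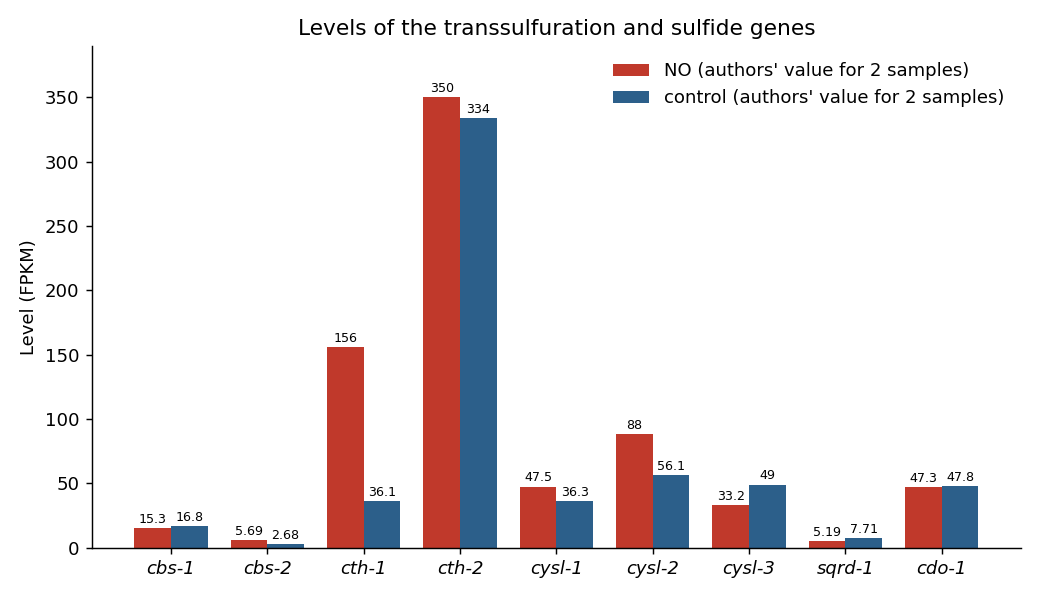
Levels of the 9 genes in FPKM, with the authors' value for NO worms at the left of each pair and for control worms at the right. cth-2 was the most abundant gene in both conditions, and cth-1 stood at 156 FPKM in NO worms against 36.1 FPKM in control worms.

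The beta-synthase genes catalyse the step that commits homocysteine to transsulfuration. In the deposited table cbs-1 lay at level percentile 57.8 in NO worms and 60.9 in control worms, and cbs-2 at percentile 39.5 in NO worms and 30.3 in control worms. cbs-1 had 15.3 FPKM in NO worms and 16.8 FPKM in control worms in the authors' deposited table, which is a log2 fold of -0.14 (SE 0.42, 95% interval -0.97 to 0.70). Its paralog cbs-2 had 5.69 FPKM in NO worms and 2.68 FPKM in control worms in the deposited table, a 2.12-fold difference with a log2 fold of 1.09 (SE 0.52, 95% interval 0.06 to 2.11). That interval lay just above 0, and the deposited adjusted p of cbs-2 was 0.99994 (unadjusted p = 0.0375). cbs-2 was the lowest of the 9 genes in control worms, where it made up 13.8% of the beta-synthase sum in the deposited table, and it made up 27.1% in NO worms. The sum of both genes was 21.0 FPKM in NO worms and 19.5 FPKM in control worms in the deposited table, so the pair as a whole stood at nearly the same level. The fold of cbs-2 exceeded that of cbs-1 by 1.22 on the log2 scale (SE 0.67, 95% interval -0.10 to 2.54), an interval that includes 0.

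The gamma-lyase genes, which act next, had a summed level far above that of the beta-synthases. cth-1 had 156 FPKM in NO worms and 36.1 FPKM in control worms in the authors' deposited table, a 4.32-fold rise (95% interval 2.58 to 7.25). Its deposited log2 fold was 2.11 (SE 0.38, adjusted p = 3.2e-05 in the deposited table). cth-2, which encodes the second cystathionine gamma-lyase, had 350.2 FPKM in NO worms and 334 FPKM in control worms in the deposited table, which is a log2 fold of 0.07 (SE 0.32, 95% interval -0.55 to 0.69). These limits for cth-2 correspond to 0.683-fold and 1.61-fold in the deposited table, so a change as large as that of cth-1 lies outside them. The folds of cth-1 and cth-2 differed by 2.04 on the log2 scale (SE 0.49, 95% interval 1.07 to 3.01), if the errors of the 2 genes are taken as independent.

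The makeup of the gamma-lyase transcripts therefore differed between the conditions while cth-2 remained the larger part. cth-1 was 30.8% of the gamma-lyase sum in NO worms and 9.75% in control worms, computed from the deposited table. cth-2 exceeded cth-1 by 2.25-fold in NO worms and by 9.25-fold in control worms. The sum of both was 506 FPKM in NO worms and 370.2 FPKM in control worms, a 1.37-fold ratio. Among all loci of the deposited table, the level of cth-1 lay at percentile 92.7 in NO worms and at percentile 73.7 in control worms. Among the 9 genes it was the second most abundant in NO worms and the sixth in control worms. Its deposited p ranked 15th among the 64 loci that rose, its fold 40th and its NO level 11th. Of the 6308 loci with a mean of 10 to 100 FPKM, 0.602% had a larger deposited log2 fold than cth-1.

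**Figure D2:**
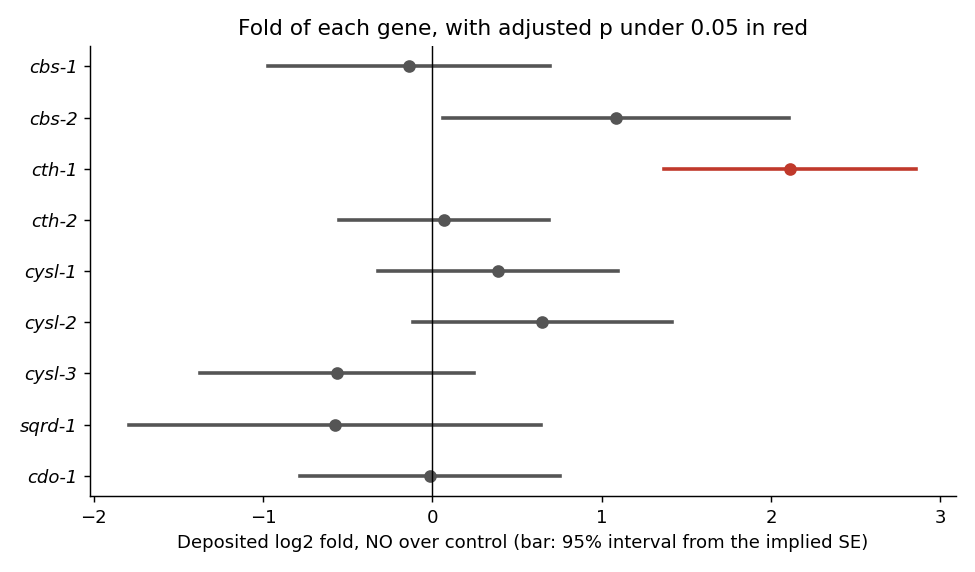
Deposited log2 fold of NO over control for each of the 9 genes, as points with 95% intervals from the implied SE, and with cth-1, the gene that passed an adjusted p of 0.05, in red. The interval of cth-1 runs from 1.37 to 2.86 and does not overlap that of cth-2, and the intervals of all genes other than cth-1 and cbs-2 include 0.

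The 3 cysteine synthase-like genes were moderately expressed, and none passed the test. cysl-1, which encodes the sulfide sensor that binds EGL-9, had 47.5 FPKM in NO worms and 36.3 FPKM in control worms in the authors' deposited table, where it is listed as C17G1.7 (log2 fold of 0.39 with an SE of 0.36, 95% interval -0.32 to 1.097). cysl-2 encodes an enzyme that uses cysteine to detoxify cyanide with release of sulfide, and it is a HIF-1 target. Its levels were 88.0 FPKM in NO worms and 56.1 FPKM in control worms in the deposited table, under the name K10H10.2 (log2 fold of 0.65 with an SE of 0.39, 95% interval -0.12 to 1.41). The interval's limits are 0.923-fold and 2.67-fold, so both no change and a moderate rise of cysl-2 lie within it. cysl-3, listed as R08E5.2, had 33.2 FPKM in NO worms and 49.0 FPKM in control worms in the deposited table (log2 fold of -0.56 with an SE of 0.41, 95% interval -1.37 to 0.25).

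The cysteine synthase-like genes thus had values on both sides of 0. In the authors' deposited table cysl-2 was 52.1% of the sum of the 3 genes in NO worms and 39.7% in control worms, and cysl-3 was 19.7% in NO worms and 34.7% in control worms. The difference between the folds of cysl-2 and cysl-3 was 1.21 on the log2 scale (SE 0.57, 95% interval 0.10 to 2.32). Between cysl-2 and cysl-1 it was 0.26 (SE 0.53, 95% interval -0.78 to 1.304), and between cysl-1 and cysl-3 it was 0.95 (SE 0.55, 95% interval -0.13 to 2.02). These differences between paralogs, including those of the cth and cbs pairs, are 5 comparisons whose intervals are not adjusted for their number. Only the cth pair and the pair of cysl-2 and cysl-3 gave an interval without 0.

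The oxidation genes were not called. sqrd-1, which encodes sulfide:quinone oxidoreductase and is known to be induced by sulfide in worms, had 5.19 FPKM in NO worms and 7.71 FPKM in control worms in the authors' deposited table (log2 fold of -0.57 with an SE of 0.62, 95% interval -1.79 to 0.64). Its SE was the largest of the 9 genes, and values of the joined locus cannot be split between sqrd-1 and the small RNA gene. sqrd-1 was the lowest of the 9 genes in NO worms in the deposited table. cdo-1, the cysteine dioxygenase gene, had 47.3 FPKM in NO worms and 47.8 FPKM in control worms in the deposited table, a ratio of 0.991 (log2 fold of -0.01 with an SE of 0.39, 95% interval -0.78 to 0.76). The order of levels ran from cth-2 through cth-1, cysl-2, cysl-1, cdo-1, cysl-3, cbs-1 and cbs-2 to sqrd-1 in NO worms, and from cth-2 through cysl-2, cysl-3, cdo-1, cysl-1, cth-1, cbs-1 and sqrd-1 to cbs-2 in control worms. Errors of single levels are not given in the table, so neighbours in these orders cannot be separated.

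**Figure D3:**
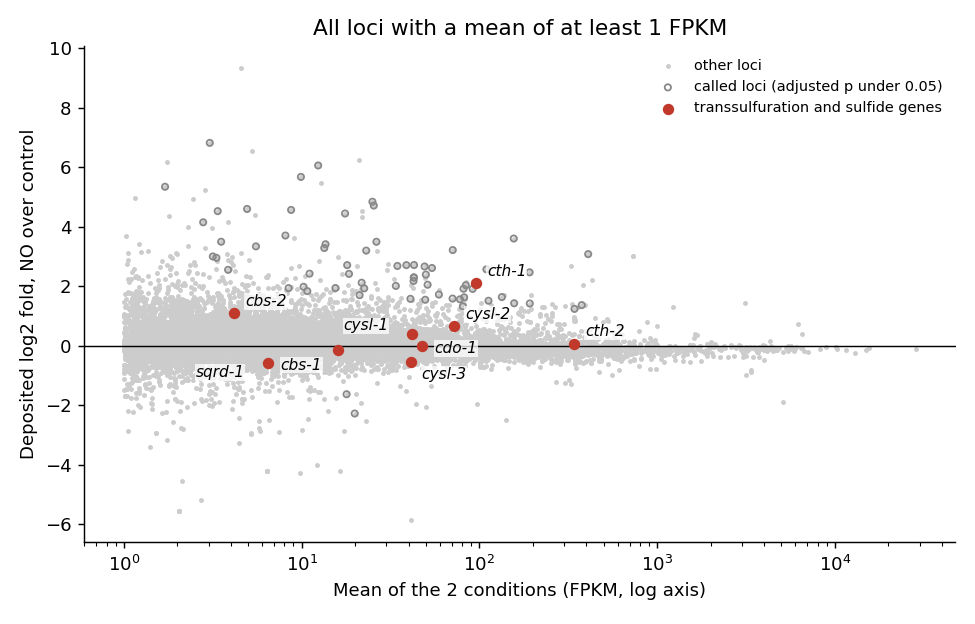
Deposited log2 fold of NO over control against the mean of both conditions (FPKM, log axis). The loci shown average 1 FPKM or more and are above 0 in both conditions, with called loci ringed and the 9 genes in red. cth-1 lies among the ringed loci, and the other 8 genes lie within the cloud of uncalled loci.

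Genes that feed or drain the pathway gave 0 calls. Of 53 genes named in 7 lists around transsulfuration, 45 were found in the authors' deposited table, of which none passed an adjusted p of 0.05. Of all loci 0.399% passed, so 0 calls among 45 genes says little about the pathway. At an unadjusted p under 0.05, 1 gene was higher and 0 were lower, where 2.75% of all loci were higher and 0.338% lower. Ratios of NO to control after adding 1 FPKM were above 0 in 15 of the 45 genes and below 0 in 30, while 46.3% of all loci averaging 1 FPKM or more were above 0. The share below 0 depended on abundance, at 62.0% of loci averaging 10 to 100 FPKM, where 28 of the 45 genes lie, and 76.6% of loci above that, where 13 lie. No single library can be examined, so a change shared by a whole list cannot be set against the spread between samples.

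Upstream, the methionine cycle supplies homocysteine, and its transcripts were abundant. The 10 measured genes summed to 4314 FPKM in NO worms and 4696 FPKM in control worms in the authors' deposited table, and their median log2 ratio after adding 1 FPKM was -0.10, against -0.03 over all loci, and 0.04 when centred on loci of like abundance. ahcy-1, whose enzyme releases homocysteine, had 2053 FPKM in NO worms and 2119 FPKM in control worms in the deposited table (log2 fold of -0.05 with an SE of 0.30). pmt-2, a phosphoethanolamine methyltransferase gene of phosphocholine synthesis, had 532 FPKM in NO worms and 696 FPKM in control worms in the deposited table (log2 fold of -0.39 with an SE of 0.25, unadjusted p = 0.129). mel-32, a serine hydroxymethyltransferase gene listed in a joined locus, had 409 FPKM in NO worms and 479 FPKM in control worms in the deposited table. The abundance of ahcy-1, the last step before homocysteine, contrasts with the 21.0 FPKM of the beta-synthases in NO worms in the deposited table.

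Serine, the other substrate of the beta-synthase step, is made by enzymes whose 3 genes had a median log2 ratio of 0.19. Y62E10A.13, a phosphoserine phosphatase gene, had 93.4 FPKM in NO worms and 69.8 FPKM in control worms in the authors' deposited table (log2 fold of 0.42 with an SE of 0.44). F26H9.5, a phosphoserine aminotransferase gene, had 78.2 FPKM in NO worms and 95.99 FPKM in control worms in the deposited table (log2 fold of -0.30 with an SE of 0.48). C31C9.2, the phosphoglycerate dehydrogenase gene now named phdh-1, had 32.3 FPKM in NO worms and 28.2 FPKM in control worms in the deposited table (log2 fold of 0.20 with an SE of 0.33). None of the 3 passed.

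Downstream, cysteine enters glutathione, whose 4 synthesis and reduction genes had a median log2 ratio of -0.09, or 0.05 when centred on loci of like abundance. gcs-1, the gene of the rate-limiting glutamate-cysteine ligase, had 70.9 FPKM in NO worms and 62.8 FPKM in control worms in the authors' deposited table (log2 fold of 0.18 with an SE of 0.38). E01A2.1, the ligase's modifier subunit gene, had 70.0 FPKM in NO worms and 75.1 FPKM in control worms in the deposited table. The glutathione reductase gene gsr-1 had 118 FPKM in NO worms and 137 FPKM in control worms in the deposited table (log2 fold of -0.22 with an SE of 0.31). Cysteine also supplies the sulfur of iron-sulfur clusters, and the 4 measured assembly genes all had ratios below 0, with a median of -0.09 that lay above 0 when centred on loci of like abundance. Among them nfs-1, the cysteine desulfurase gene, had 49.0 FPKM in NO worms and 50.6 FPKM in control worms in the deposited table. The scaffold gene iscu-1 had 120.1 FPKM in NO worms and 131 FPKM in control worms, and lpd-8, in a joined locus, 172 FPKM in NO worms and 207 FPKM in control worms, in the deposited table.

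Sulfide clearance and sulfur transfer outside the 9 genes gave the 1 unadjusted p under 0.05 of these lists. mpst-4, which encodes a mercaptopyruvate sulfurtransferase, had 17.2 FPKM in NO worms and 7.57 FPKM in control worms in the authors' deposited table (log2 fold of 1.18 with an SE of 0.55, unadjusted p = 0.0329, adjusted p = 0.99994). cysl-4, the fourth cysteine synthase-like gene, had 3.96 FPKM in NO worms and 1.66 FPKM in control worms in the deposited table (log2 fold of 1.26 with an SE of 0.70, unadjusted p = 0.0742). The most abundant of the list, mpst-1, had 119.7 FPKM in NO worms and 129 FPKM in control worms in the deposited table, in a locus joined with D2023.4. mpst-5 and mpst-6 carried identical values, 27.4 FPKM in NO worms and 24.7 FPKM in control worms in the deposited table, so the value of either gene is uncertain. The persulfide dioxygenase gene ethe-1, which acts after sulfide:quinone oxidoreductase, had 13.002 FPKM in NO worms and 12.7 FPKM in control worms in the deposited table and lay in a joined locus, and it was named after its values were seen. The list's 9 genes had a median log2 ratio of 0.14, which is the value shared by mpst-5 and mpst-6. It was 0.09 with that value counted once (an alternative added after the data were seen), 0.08 when centred on loci of like abundance and 0.03 among loci averaging 10 FPKM or more.

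In cysteine catabolism and molybdenum cofactor synthesis, which sulfite oxidase needs, 7 of 8 genes were below 0 in their ratio, and the median was -0.14, or -0.06 when centred on loci of like abundance. got-2.2, got-2.1 and got-1.2 encode aspartate aminotransferases. got-2.2 had 118 FPKM in NO worms and 142 FPKM in control worms in the authors' deposited table, got-2.1 111 FPKM in NO worms and 119.7 FPKM in control worms, and got-1.2 58.6 FPKM in NO worms and 65.8 FPKM in control worms. The exception was the cofactor gene moc-5, with 15.5 FPKM in NO worms and 10.4 FPKM in control worms in the deposited table (log2 fold of 0.58 with an SE of 0.54).

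**Figure D4:**
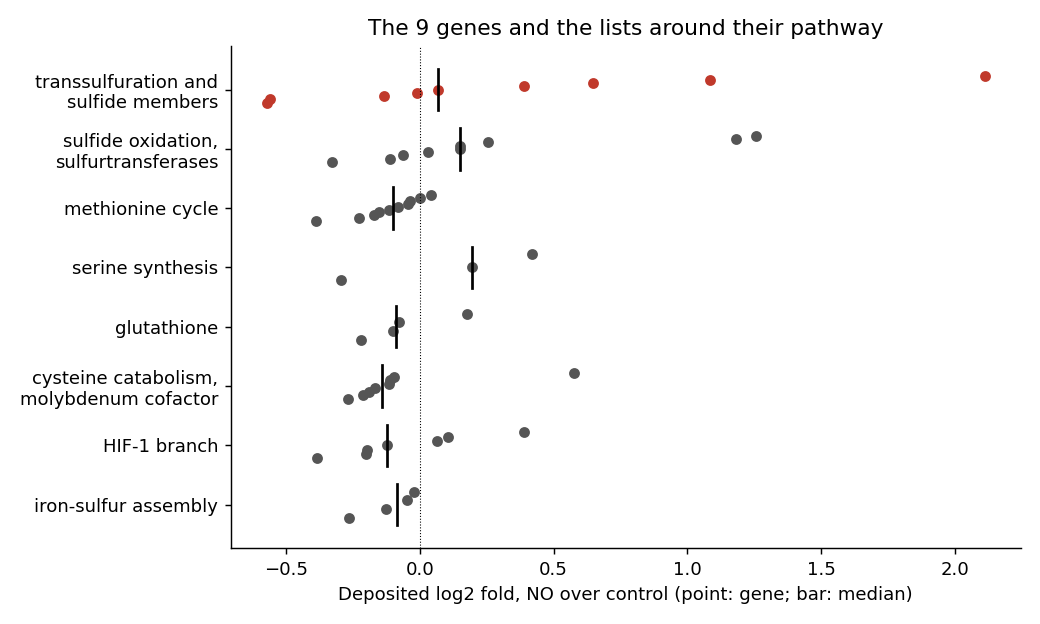
Deposited log2 fold of NO over control for the 9 genes (red, top) and for the measured genes of the 7 lists around their pathway (grey), with the median of each as a bar. The red point at 2.11 is cth-1, and the highest grey points are cysl-4 at 1.26 and mpst-4 at 1.18.

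The HIF-1 branch, through which worms are known to respond to sulfide, gave 0 calls among 7 measured genes, where 0.399% of all loci were called. Its median log2 ratio was -0.12. That median is the value of skn-1, which the list includes although its product acts mainly outside the oxygen branch. It was -0.05 without skn-1 (an alternative added after the data were seen), -0.03 among loci averaging 10 FPKM or more and 0.03 when centred on loci of like abundance. rhy-1, a regulator upstream of CYSL-1 and itself a HIF-1 target, had 17.3 FPKM in NO worms and 19.9 FPKM in control worms in the authors' deposited table (log2 fold of -0.20 with an SE of 0.66). F22B5.4, another HIF-1 target, had 17.2 FPKM in NO worms and 13.1 FPKM in control worms in the deposited table (log2 fold of 0.39 with an SE of 0.56). vhl-1, whose product marks HIF-1 for degradation, had 9.55 FPKM in NO worms and 12.4 FPKM in control worms in the deposited table (log2 fold of -0.38 with an SE of 0.55). The transcript of skn-1, a regulator of detoxification genes, had 93.5 FPKM in NO worms and 102 FPKM in control worms in the deposited table. hif-1 itself was not analysed here.

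Both direct neighbours of cth-1 had higher values in NO worms, and 1 of them passed the test. argk-1, an arginine kinase gene listed as F44G3.2, follows cth-1 on the same strand in the annotation, and it rose to 49.1 FPKM in NO worms, against 1.88 FPKM in control worms, in the authors' deposited table (log2 fold 4.71, 95% interval 3.60 to 5.82, adjusted p listed as 0). str-7, a chemoreceptor-family gene that precedes cth-1 on the opposite strand, had 1.704 FPKM in NO worms and 0.0907 FPKM in control worms in the deposited table (log2 fold of 4.23 with an SE of 1.281, unadjusted p = 0.000959, adjusted p = 0.152). F22B8.7, the next gene beyond str-7 and on the strand of cth-1, rose to 128 FPKM in NO worms, against 13.8 FPKM in control worms, in the deposited table (log2 fold 3.21), and it was named after its values were seen. With F22B8.7 counted, 4 genes in a row were higher in NO worms. Of these, 3 passed the test, cth-1 among them, where 0.386% of all loci passed in the upward direction. This run was put together after the values were seen, and it includes str-7, which was near 0 in control worms. srxa-16, the gene after argk-1, was not analysed here.

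For the other 8 genes, 14 of their 16 direct neighbours were in the authors' deposited table, with deposited log2 folds from -0.85 to 1.38. Of these 14, 0 passed an adjusted p of 0.05 or an unadjusted p of 0.05. Over all loci 0.399% and 3.09% passed these limits, so 0 of 14 says little about these neighbours. Called neighbours were not particular to cth-1 in the deposited table. Of 59 called loci that could be placed in the order of protein-coding genes, 10 had another called locus as direct neighbour, counting the duplicated hsp-16 genes once per name. These 10 include cth-1 and argk-1 themselves. The others are F44E5.4, F44E5.5, Y58A7A.4, Y58A7A.5, ddn-1, B0507.8, hsp-16.1 and hsp-16.48. The share of all loci that lie next to a called locus was not computed. Whether counting used the strand of the reads is not stated in the labels, so reads of str-7 and of its neighbours on the other strand may not be separated. Transcription running on from 1 gene into the next was not tested.

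**Figure D5:**
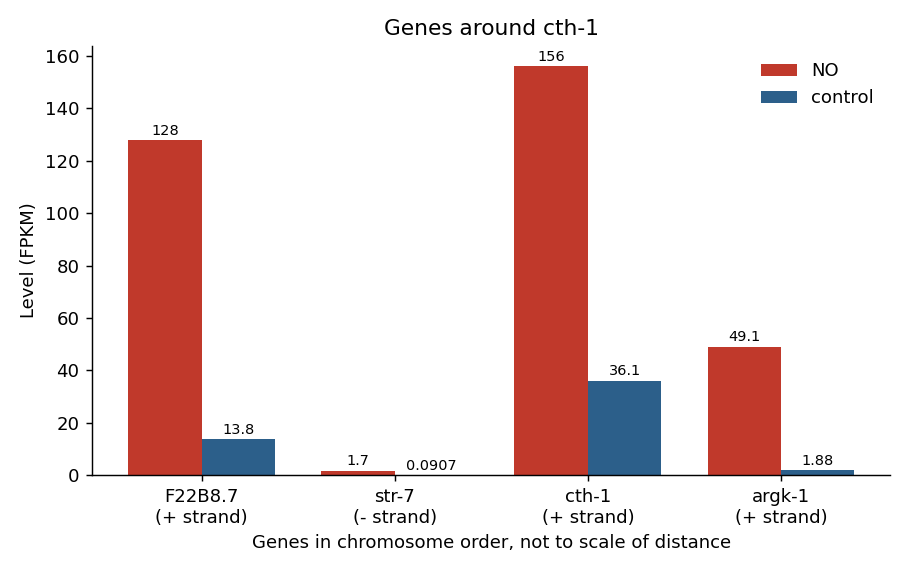
Levels in FPKM of cth-1 and its neighbours in chromosome order, with NO worms at the left of each pair and control worms at the right, and with the annotated strand under each name. cth-1 is the most abundant of the 4 in both conditions, and argk-1 has the largest deposited log2 fold, 4.71.

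The 5 loci nearest to cth-1 in levels, by distance over the log2 NO and log2 control values of the authors' deposited table, were F53B2.8, gst-4, col-14, K08F4.13 and C42D4.3. The nearest, F53B2.8, had 145 FPKM in NO worms and 38.6 FPKM in control worms in the deposited table (distance 0.14). gst-4, a glutathione S-transferase gene, had 134.9 FPKM in NO worms and 33.0 FPKM in control worms in the deposited table (distance 0.25). The cuticle collagen gene col-14 had 129 FPKM in NO worms and 34.2 FPKM in control worms in the deposited table. Of the 5, only K08F4.13 was not called in the deposited table (log2 fold of 2.152 with an SE of 1.01, adjusted p = 0.99994). Over all loci 0.399% were called. These 5 were picked for levels close to those of a called gene, so their calls largely follow from that choice. With 2 conditions, such likeness says only that levels and folds were close.

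The labelled source was whole worms, and 26 marker genes of 7 tissues were looked up. Of these, 25 were in the authors' deposited table, all of them above 0 in both conditions. So were 15621 of all 16562 loci, so values above 0 say little about whether a tissue was present. The epidermal marker dpy-7, in a joined locus, had only 1.17 FPKM in NO worms and 0.691 FPKM in control worms. None of the 25 markers was called at an adjusted p of 0.05, which 0.399% of all loci passed. At an unadjusted p under 0.05, 1 of them, the epidermal collagen gene rol-6, was higher, as were 2.75% of all loci. The summed level of 3 intestinal markers was 453 FPKM in NO worms and 573 FPKM in control worms, that of 4 epidermal markers 154 FPKM in NO worms and 159.5 FPKM in control worms, with 3 of these 4 higher in NO worms and lin-26, in a joined locus, holding 104.1 FPKM in NO worms and 117 FPKM in control worms in the deposited table. That of 4 body wall muscle markers was 909.9 FPKM in NO worms and 819 FPKM in control worms in the deposited table. Germline markers (4) summed to 809 FPKM in NO worms and 930.2 FPKM in control worms, and sperm markers (3) to 333 FPKM in NO worms and 295 FPKM in control worms, in the deposited table. Pharyngeal (3) and neuronal (4) markers summed to 94.1 and 263 FPKM in NO worms and to 84.1 and 288 FPKM in control worms in the deposited table. Of the 25 marker genes 6 lie in joined loci, among them unc-54 in muscle and snb-1, which held 229 FPKM of the neuronal sum in NO worms and 251 FPKM in control worms in the deposited table. In whole worms, fewer cells of a tissue and less RNA per cell cannot be told apart.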

How the data were processed

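RNA of whole L4 worms was sequenced from 2 NO-treated and 2 control samples, with libraries from the Illumina TruSeq RNA kit, per the labels' protocols. The submitters' processing notes name R 2.15.2, TopHat2 2.0.2 and Cufflinks 2.0.5, without settings. For genome build, annotation and scaling the sources used here state nothing, and coordinates are left out. The authors deposited 1 table with 1 value per condition, taken as FPKM from its layout and values, since the unit is not named. The deposited fold is the ratio of NO to control, its log2 is deposited beside it, and the test statistic is a score of opposite sign, per the file headers and the values. The deposited p-value equals the two-sided normal tail of that score, and the adjusted p a Benjamini-Hochberg adjustment over all 16562 loci. Per the labels, nothing says whether samples came from separate cultures, so p-values may measure technical spread.

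From the table, each SE was computed as the log2 fold over the statistic, and 95% intervals from it, with Python 3.11.15, pandas 2.3.3 and scipy 1.17.1. The code was first run on simulated data. That simulation drew its noise with these same SEs, so it could not test whether they reflect the spread between samples. Values per sample were not analysed here, so limma and count models were not run and calls are the deposited ones at 0.05. List medians use log2 after adding 1 FPKM, over loci averaging 1 FPKM or more, which understates changes of low genes. Gene names and neighbours came from WBcel235 tables; of 53 pathway names 45 were found. Named genes were all members, direct neighbours of called members, per list the 3 most abundant and 2 largest changes, and the 5 loci nearest cth-1. Members and lists were chosen with earlier results of these data known. Depth is unknown, and precision is read from the SE, 0.32 to 0.62 for the 9 genes.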

Additional observations from a re-analysis of the deposited data

How the results depend on the processing

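The call of cth-1 was kept at adjusted p thresholds of 0.01 and 0.1 and with a minimum fold of 2. With a deposited adjusted p of 3.2e-05 and a 4.32-fold rise, these settings could not have dropped it. It was also kept when p-values were adjusted again over the 14285 loci averaging 1 FPKM or more (adjusted p = 2.76e-05) or the 15101 loci naming 1 gene (adjusted p = 2.91e-05). Under all of these settings 1 of the 9 genes and 0 of the pathway list genes were called. Over all loci the count of calls was 66, and it was 42 (40 higher, 2 lower) at a threshold of 0.01, since a stricter threshold admits fewer loci, and 90 at 0.1. The log2 ratio of cth-1 ranged from 2.08 to 2.23 over pseudocounts of 1, 0.1 and none and both centrings. For the 9 genes all 36 alternative log2 ratios lay within 1 implied SE of the value reported. List medians have no SE of their own, and 12 of their 44 alternative values, in 6 of 7 lists, moved by over 1.5 times or to the other sign. The sign differed under centring for cdo-1, whose log2 ratio of -0.01 was 0.02 centred on all loci and 0.12 centred on loci of like abundance. Medians of the methionine cycle, glutathione, HIF-1 branch and iron-sulfur lists were 0.04, 0.05, 0.03 and 0.06 when centred on loci of like abundance, and the glutathione and iron-sulfur medians were -0.06 and -0.05 when centred on all loci. No paired analysis was possible because the table holds 1 value per condition, and leaving out replicates and other count models were not run for the same reason. The implied SE limits what can be seen: for the 9 genes it was 0.32 or more on the log2 scale.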

Other observations

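Genes of propionate breakdown, which in worms report on vitamin B12, a cofactor of the methionine cycle, gave 0 calls. Of all loci 0.399% were called, and these genes were chosen with results of these data known. The 4 genes of the B12-dependent route, pcca-1, pccb-1, mce-1 and mmcm-1, had deposited log2 folds from -0.39 to -0.14 in the authors' deposited table. Their SEs were 0.29 to 0.40. At levels like theirs most loci had ratios below 0. These were 62.0% of loci averaging 10 to 100 FPKM and 76.6% of loci above that. The 4 genes of the B12-independent shunt had deposited log2 folds from -0.12 to 0.19. Its first enzyme gene, acdh-1, had 1730.1 FPKM in NO worms and 1738 FPKM in control worms in the deposited table. Both acdh-1 and the shunt gene hach-1 lie in joined loci. nhr-114, a nuclear hormone receptor gene known to act on the methionine cycle, had 186 FPKM in NO worms and 264 FPKM in control worms in the deposited table (log2 fold of -0.51 with an SE of 0.29). Of the 12 genes examined, 0 had an unadjusted p under 0.05 in the deposited table, where 3.09% of all loci did. cbl-1, a further lyase gene of sulfur amino acids listed as C12C8.2, had 29.6 FPKM in NO worms and 34.1 FPKM in control worms in the deposited table.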
